A study of Mus musculus with 4 samples.

Results

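The cells described here are those outside the macrophage population in the spinal cords of tau mice that carried the label CD8 KO and of tau mice that carried the label CD8 WT. A cell was included when it had at least 500 unique molecular identifiers (UMIs, each counting 1 captured transcript), at least 200 detected genes and at most 15% mitochondrial UMIs, and when the complement genes C1qa, C1qb and C1qc together made up less than 0.5% of its UMIs. That rule gave 5325 cells, 2599 from the library labelled CD8 KO and 2726 from the library labelled CD8 WT, of 9758 cells kept in these 2 libraries and 22644 barcodes in the 4 libraries of the series. Both libraries came from mice homozygous for P301S at 30 weeks of age. P301S is a mutation of the microtubule-binding protein tau that causes its aggregation, and such mice develop tau pathology in the spinal cord. The labels give neither the promoter that drives the tau transgene nor the gene deleted in the CD8 KO mice. Each library held the pooled cords of 2 mice, perfused with saline, dissociated with an enzymatic tumour kit, depleted of myelin with beads and captured as 3′ single-cell RNA. The other libraries, P301S homozygous CD8 WT mice at 33 weeks and P301S-negative CD8 WT mice at 30 weeks, serve here as reference values.

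The cells outside macrophages form the vessels, linings and supporting glia of the cord and the lymphoid and myeloid cells around it. Endothelial cells joined by tight junctions make the blood-spinal cord barrier, pericytes and smooth muscle cells wrap it, and ependymal cells line the central canal. CD8 is the co-receptor with which cytotoxic T cells read antigen on MHC class I, and its alpha and beta chains are encoded by Cd8a and Cd8b1. Interferon released by T cells and other cells acts on all of these types, and MHC class I and interferon-induced genes are its usual readout.

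Each group was a single library, so no test of a difference between the groups was possible, and the pooled mice could not be separated into replicates. Levels are given as CPM, the UMIs of a gene per 1000000 UMIs summed over the cells of a class, with an exact Poisson 95% interval. Ratios of CD8 KO to CD8 WT carry an exact conditional 95% interval, and shares of cells an exact Clopper-Pearson 95% interval. All these intervals cover counting error only. A gene counted as measured when it had at least 50 UMIs over both libraries in a class, and as higher or lower when the libraries were at least 1.5-fold apart. Total depth was 43531426 UMIs in the CD8 KO library and 42401255 in the CD8 WT library, and the cells described held a median of 4581 and 4860.5 UMIs. The pair of libraries shared 1 barcode. Each compared class detected at least 9 of its 10 to 17 defining markers in at least 10% of its cells in both libraries. Near the C1q limit, 40 and 30 included cells held 0.25% to 0.5% of their UMIs in these genes, and 77 and 65 excluded cells 0.5% to 1%. The mice differed in sex: of the cells described, 1400 in the CD8 KO library carried Y-linked transcripts without Xist and 2 carried Xist without them, against 0 and 1926 in the CD8 WT library. Sex and the CD8 label therefore cannot be told apart in this comparison, whereas the 33-week library held 1080 cells with Xist and 696 with Y-linked transcripts, and the P301S-negative library 1480 and 1200. Male cells of those libraries, from an unknown number of their pooled mice, are used below as further reference values.

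Cd8a, which encodes the alpha chain of CD8, was much lower in T cells of the library labelled CD8 KO than in those of CD8 WT, and was abundant in the CD8 KO endothelium. In T cells it had 6 UMIs in 3 cells (23.7 CPM, 8.69 to 51.5) in the CD8 KO library and 67 in 22 cells (349 CPM, 270 to 443) in the CD8 WT library. The CD8 KO T cells also carried endothelial transcripts, with 15 endothelial markers summing to 1267 CPM against 72.8 in CD8 WT T cells, and outside the developing group described below, 1 UMI of Cd8a was left in the 46 CD8 KO T cells without such transcripts, so the few UMIs do not show expression by these T cells. In endothelial cells it had 950 UMIs in 520 of 1222 cells of the CD8 KO library, or 121 CPM (113 to 129), and 0 in the CD8 WT, the 33-week and the P301S-negative libraries. Set against the level that 3 UMIs would give in the CD8 WT library, this was at least 251-fold higher. The 3′ tags do not show which part of the gene was transcribed, and the labels do not say which part was deleted.

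Endothelial cells were the most numerous class in both libraries, and the libraries differed mainly in cells of marrow, blood and spinal root. Neutrophils, monocytes, B cells, dendritic cells and erythroid cells together made up 16.2% of the cells in the CD8 KO library (421 cells, 14.8 to 17.7) and 39.4% in the CD8 WT library (1074 cells, 37.6 to 41.3). They made up 43.1% in the 33-week library and 33.4% in the P301S-negative library, so the CD8 KO library stood below all 3. Schwann cells, which include the myelinating cells of peripheral axons, and neuron-like cells, which led with the sensory genes Prph and Calca, belong to nerve roots and ganglia. They made up 7.46% of the CD8 KO library (6.48 to 8.54) against 1.47% of the CD8 WT library (1.05 to 1.99), 1.11% at 33 weeks and 0.837% in the P301S-negative library. The neuron-like cluster was almost wholly from a single library, with 101 cells in CD8 KO, 0 in CD8 WT, which allows a share of up to 0.110%, 2 at 33 weeks and 1 in the P301S-negative library. It may therefore describe that library and not a difference between the genotypes. The numbers of marrow, blood and root cells change the denominator of every other share.

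Endothelial cells were 47.0% of the cells in CD8 KO and 35.8% in CD8 WT, a ratio of shares of 1.31 (1.21 to 1.43). Over cord-resident types alone, with marrow, blood, root and unnamed cells left out, the shares were 71.8% and 73.0%, a ratio of 0.984 (0.903 to 1.07). The direction of the endothelial share thus turned with the denominator, and so did that of ependymal cells, at 1.32 over all cells and 0.988 over cord types. The named smooth muscle class had a higher share in CD8 KO over both denominators. Its cells made up 2.92% of the CD8 KO library (76 cells) and 1.17% of the CD8 WT library (32 cells), a ratio of 2.49 (1.63 to 3.89). Over cord types they made up 4.47% and 2.39%, a ratio of 1.87 (1.22 to 2.91). The same share over cord types was 3.25% at 33 weeks and 4.38% in the P301S-negative library, so the CD8 WT library was the lowest of the 4. A further cluster that led with the smooth muscle genes Tagln, Acta2 and Myh11 but also held endothelial markers, and was left unnamed, had 69 CD8 KO and 56 CD8 WT cells. Counted with the named class, 145 and 88 cells gave a ratio of 1.73 over all cells (1.32 to 2.28). The merged ratio was not computed over cord types, so the cord-type ratio of 1.87 holds for the named class alone. How far it depends on the split between the 69 and 56 mixed cells and the named ones was not tested. A like cluster of pericyte genes with endothelial markers held 140 and 102 cells. Astrocytes, with 24 and 35 cells, were lower in CD8 KO over cord types, at a ratio of 0.539 (0.307 to 0.932). Over all cells their ratio was 0.719 (0.409 to 1.24), an interval that included 1. For pericytes (74 and 57 cells), fibroblasts (35 and 34), oligodendrocyte precursors (56 and 38), T cells (67 and 51) and NK cells (26 and 17), the interval of the ratio over cord types included 1. T and NK cells were counted among the cord types. The T cells included a developing group of 17 CD8 KO cells and 1 CD8 WT cell, described below. No mature oligodendrocyte was found in either library, which allows a share of up to 0.115% in CD8 KO and 0.110% in CD8 WT. Clusters with markers of several types were left unnamed under limits set after the clusters were seen, and these mixed clusters held 8.16% of the CD8 KO cells and 6.64% of the CD8 WT cells.

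**Figure D1:**
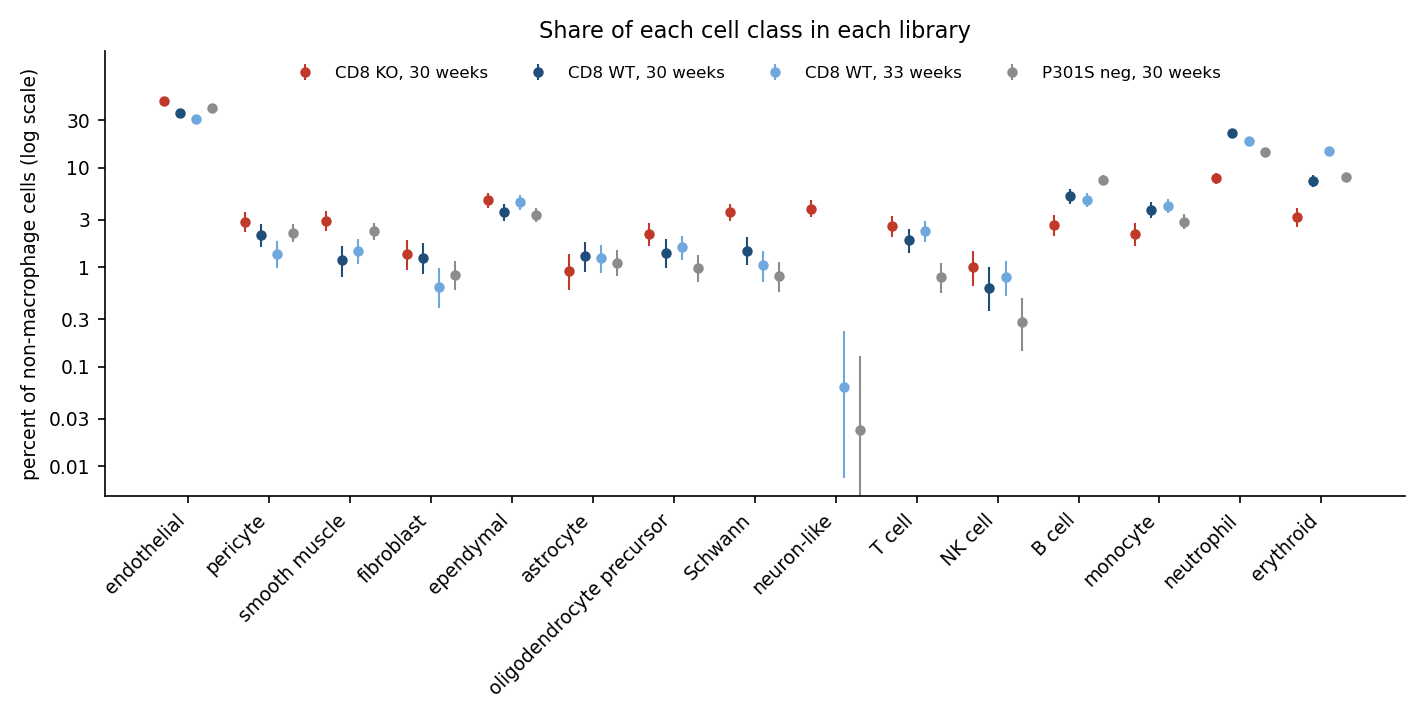
Percent of the cells outside macrophages (y axis, log scale) in each named class (x axis) for the 4 libraries. Points are single libraries and bars are exact Clopper-Pearson 95% intervals; a class with 0 cells has no point. The CD8 KO library sits below the other 3 for neutrophils, B cells and erythroid cells and above them for Schwann and neuron-like cells.

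The endothelium of the library labelled CD8 KO differed little from that of the CD8 WT library in barrier, MHC class I and interferon genes. Of 10077 measured genes, 1.53% were higher and 1.83% lower. None of 21 measured genes of barrier junctions and transporters, none of 16 MHC class I genes and none of 17 type I interferon genes was 1.5-fold apart in either direction. Of 16 genes induced by interferon gamma, 1 was lower and none higher, with a median log2 ratio of -0.22 beside -0.00432 over all measured genes. Of 12 leukocyte adhesion genes, 2 were higher and 1 lower, and of 18 glucocorticoid-response genes 2 were higher. These medians depended on the reference chosen: against male endothelial cells of the P301S-negative library, 15 of 16 MHC class I genes were lower in male CD8 KO cells with a median log2 ratio of -1.50, whereas against male cells of the 33-week library none of the 15 measured was apart and the median was 0.19.

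Lrg1, a secreted glycoprotein that acts on endothelial TGF-beta signalling, was among the endothelial genes with the highest ratios. Its level was 111 CPM in CD8 KO, 63.3 in CD8 WT, 53.3 at 33 weeks and 34.5 in the P301S-negative library, so CD8 KO was the highest of the 4. The ratio was 1.75 (1.55 to 1.97), and 14.7% of its UMIs came from 1 cell, without which the ratio was 1.49. Ide, encoding insulin-degrading enzyme (chr19:37268743-37337852, minus strand, mm10), was at 51.2 CPM in CD8 KO and 30.7 in CD8 WT, with 30.3 at 33 weeks and 28.7 in the P301S-negative library. The ratio was 1.67 (1.40 to 1.99), its UMIs lay in 291 and 165 cells, and male CD8 KO cells stood 1.83-fold above male 33-week cells and 1.67-fold above male P301S-negative cells. CD8 KO was again alone, above 3 close values. The DNA repair gene Ercc1 had a ratio of 1.63 (1.40 to 1.91), but its level of 65.3 CPM in CD8 KO was nearer to the 56.3 CPM at 33 weeks.

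Fkbp5, a glucocorticoid-induced chaperone, was at 36.8 CPM in CD8 KO, 19.4 in CD8 WT, 37.3 at 33 weeks and 5.67 in the P301S-negative library. The ratio was 1.89 (1.53 to 2.36), and CD8 KO was level with the older tau mice. Hrct1 (70.7 and 43.7 CPM, 1.62-fold) was higher still in the 2 reference libraries, at 74.0 and 97.3 CPM. Ccn1, an immediate early gene that encodes a matrix-associated signalling protein, was at 834 CPM in CD8 KO and 547 in CD8 WT, a ratio of 1.52 (1.46 to 1.59), with 759 and 674 CPM in the references. It was the sole member higher among 21 measured immediate early genes. CD8 KO was the highest of the 4 libraries for Lrg1, Ide, Ercc1 and Ccn1 but not for Fkbp5 and Hrct1, and CD8 WT was the lowest for Ercc1, Hrct1 and Ccn1.

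Among the lower genes, Tmem100, an endothelial membrane protein of the BMP pathway, was at 32.7 CPM in CD8 KO, 68.5 in CD8 WT, 42.5 at 33 weeks and 48.7 in the P301S-negative library. It was 2.09-fold (1.79 to 2.45) lower, and CD8 KO was the lowest of the 4. The X-linked genes Ddx3x (297 and 491 CPM) and Eif2s3x (34.6 and 58.0 CPM), which have Y-linked partners, were 1.65-fold and 1.68-fold lower. Between male CD8 KO and male P301S-negative cells, Ddx3x had a ratio of 1.08 and Eif2s3x of 1.14. With male 33-week cells as the reference, Eif2s3x had a log2 ratio of 0.10, whereas the direction of Ddx3x did not turn. The transcriptional regulator Lmcd1 (72.1 and 120 CPM) and Lrrc32, which tethers latent TGF-beta (43.8 and 71.2 CPM), were 1.66-fold and 1.63-fold lower. The reference libraries held 58.0 and 54.5 CPM of Lmcd1 and 36.5 and 43.4 CPM of Lrrc32, so here the CD8 WT library was the high value. Vcam1, the adhesion molecule for leukocyte integrins, was at 75.9 CPM in CD8 KO, 114 in CD8 WT, a similar level at 33 weeks and 192 in the P301S-negative library, a ratio of 0.666 (0.596 to 0.744). Dbp, a circadian clock output gene, was at 8.78 CPM in CD8 KO, 21.2 in CD8 WT, 53.6 at 33 weeks and 41.4 in the P301S-negative library, 2.41-fold (1.79 to 3.28) lower. Its range across the 4 libraries was wider than that ratio, and the time of day of each collection is not given in the labels.

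The neutrophil granule gene S100a9 was 4.86-fold lower in CD8 KO endothelium, at 15.3 CPM in CD8 KO, 74.2 in CD8 WT, 64.2 at 33 weeks and 114 in the P301S-negative library. Of 5 measured granule genes 4 were lower, and Lcn2, which inflamed endothelium also makes, was higher, at 102 CPM in CD8 KO against 57.8 in CD8 WT (1.77-fold). The summed level of 17 neutrophil markers in the same endothelial cells was 136 CPM in CD8 KO, 218 in CD8 WT, 169 at 33 weeks and 332 in the P301S-negative library, and neutrophils were 7.85% and 22.4% of the cells in the first 2. Markers of neurons summed to 62.3 CPM in CD8 KO against 25.1, 28.0 and 30.3 CPM, and markers of macrophages to 228 and 243 CPM in CD8 KO and CD8 WT. The part of such transcripts in the endothelial values was not tested.

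Within the endothelium, some transcripts were found almost wholly in 1 library, and 4 of these 6 genes lie in neighbouring pairs. With a minimum of 20 UMIs in 15 cells and a level more than 5 times that of all other libraries, 4 genes were selected in the CD8 KO library and 2 in the CD8 WT library. In CD8 KO these were Cd8a (chr6:71373427-71379173, plus strand), the long noncoding RNA Gm44175 (chr6:71354351-71360829, minus strand), which ends 12.6 kb away, and the neuronal genes Calca and Prph. Gm44175, which was named after its values were seen, had 187 UMIs in 139 CD8 KO cells (23.8 CPM, 20.5 to 27.5) and 1, 2 and 4 UMIs in the CD8 WT, 33-week and P301S-negative libraries. Calca had 64 UMIs in CD8 KO and 0 elsewhere, and Prph 25 in CD8 KO against 0, 2 and 2, in the library that also held the neuron-like cells. Cd8b1, which lies beside Cd8a, had 1 UMI in CD8 KO endothelium and 0 in CD8 WT endothelium. Apart from Gm44175, the 6 genes measured within 300 kb of Cd8a, of 14 annotated there, had ratios from 0.842 to 1.15.

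The CD8 WT pair lay on chromosome 10. Prf1, which encodes perforin, the pore-forming protein of cytotoxic lymphocytes (chr10:61297833-61304680, plus strand), had 54 UMIs in 43 of 976 CD8 WT endothelial cells, or 8.68 CPM (6.52 to 11.3), and 0 in the other 3 libraries. Adamts14, a procollagen-processing protease (chr10:61197112-61273438, minus strand), had 47 UMIs in 45 cells, or 7.55 CPM (5.55 to 10.0), and 0, 1 and 0 UMIs in the CD8 KO, 33-week and P301S-negative libraries. Outside the endothelium, Adamts14 was not confined to CD8 WT. Smooth muscle held 7 UMIs of it in CD8 KO, 3 in CD8 WT, 0 at 33 weeks and 9 in the P301S-negative library. Prf1 and Adamts14 are 24.4 kb apart. A UMI of either was found in 84 of the 976 cells (8.61%), and 4 cells held both. Apart from Adamts14, the 4 genes measured within 300 kb of Prf1, of 16 annotated there, had ratios from 0.900 to 1.31.

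Cd8a and Prf1 were found in several cell classes of their library and not in others. In CD8 KO, Cd8a had 688 UMIs in capillary, 119 in arterial and 143 in venous endothelium, 18 in pericytes, 13 in smooth muscle, 13 in fibroblasts and 8 in Schwann cells, with 0 in all of these in CD8 WT. The neuron-like cells, which CD8 WT lacked, held 27. No Cd8a UMI was found in the 122 ependymal cells, 56 oligodendrocyte precursors, 83 erythroid cells or 26 NK cells of CD8 KO, 1 was found in its 56 monocytes and 2 in its 204 neutrophils. Prf1 in CD8 WT had 38 UMIs in capillary, 8 in arterial and 8 in venous endothelium. It had 8 in fibroblasts, 22 in monocytes and 17 in neutrophils, with 0 in all of these classes in CD8 KO. These UMIs lay in 43 of 976 endothelial cells, 4 of 34 fibroblasts, 15 of 103 monocytes and 15 of 610 neutrophils. Per cell, Prf1 was thus found more often in fibroblasts and monocytes than in endothelium. NK cells, which make perforin, held 26 UMIs of Prf1 in CD8 KO and 6 in CD8 WT, with 21 at 33 weeks and 39 in the P301S-negative library, and T cells held 11 and 7. No Prf1 UMI was found in the 97 ependymal or 201 erythroid cells of the CD8 WT library. The origin of neither transcript can be read from these counts.

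**Figure D2:**
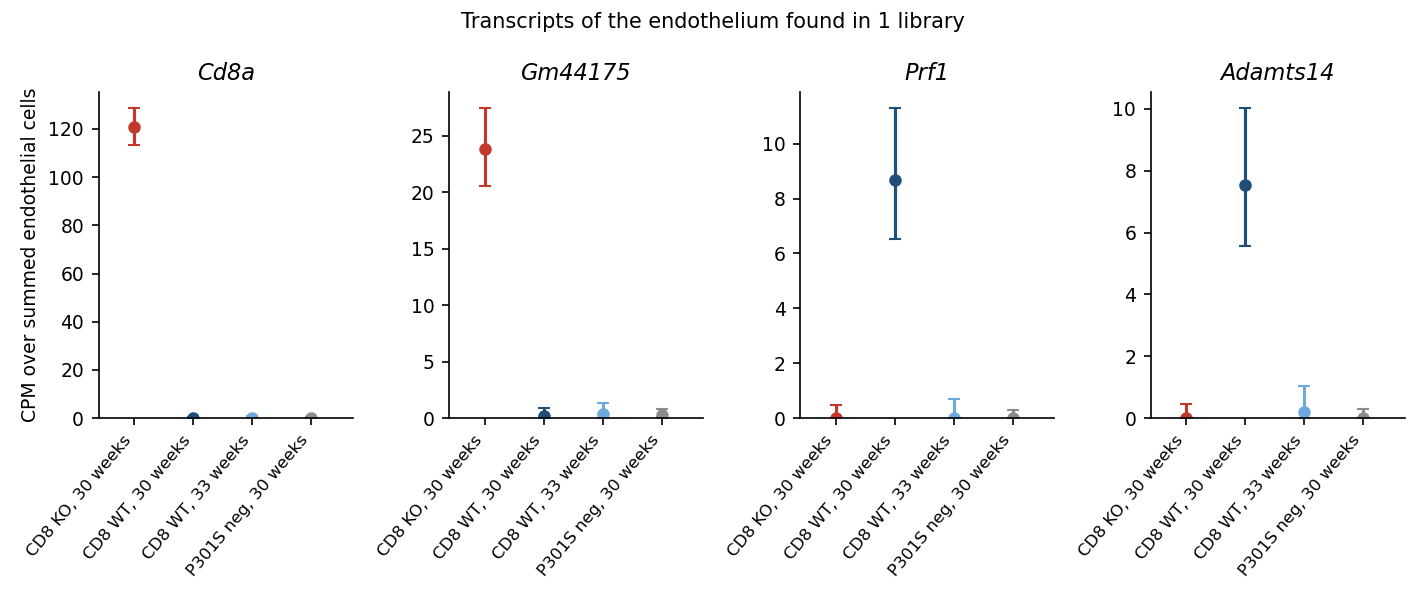
CPM over the summed endothelial cells (y axis, linear, from 0, own scale per panel) of Cd8a, Gm44175, Prf1 and Adamts14 in the 4 libraries (x axis). Points are libraries and bars exact Poisson 95% intervals. Cd8a and Gm44175 stand above the others in CD8 KO, at 121 and 23.8 CPM, and Prf1 and Adamts14 in CD8 WT, at 8.68 and 7.55 CPM.

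In venous endothelium, where leukocytes leave the blood, a few genes were higher in CD8 KO, each in few cells. Among them were Ackr1 and Selp of the leukocyte adhesion list, which were also markers used to name cells as venous. They do not stand for the whole list, whose other members are not described here. The class held 114 and 98 cells; 3.55% of 4954 measured genes were higher and 4.16% lower. Ackr1, the chemokine-binding receptor of venules, was at 309 CPM in CD8 KO, 65.2 in CD8 WT, 64.9 at 33 weeks and 187 in the P301S-negative library, a ratio of 4.74 (3.54 to 6.45), with UMIs in 17 and 12 cells. Selp, encoding P-selectin, had 70.0, 11.9, 0 and 30.1 CPM in the same order, a ratio of 5.91 (3.02 to 12.9), from 6 and 2 cells. Emp1, an epithelial membrane protein, had 145, 8.30, 11.4 and 16.9 CPM, a ratio of 17.5 (8.28 to 44.4), from 14 and 6 cells. Procr, the endothelial protein C receptor, had 151, 21.3, 26.7 and 31.0 CPM. Its ratio of 7.07 (4.31 to 12.3) was 4.24 once top-cell UMIs were left out. Csf3, the neutrophil growth factor G-CSF, had 69 UMIs in 4 CD8 KO cells and 3 UMIs in 2 CD8 WT cells, a ratio of 20.9 (6.86 to 104). Each of these 5 genes had UMIs in at most 28 of the 114 venous cells of CD8 KO. Summed neutrophil markers in the same vessels, Lcn2 among them, were at 651 CPM in CD8 KO and 426 in CD8 WT. Macrophage markers summed to 260 and 403 CPM, and the part of neither list was tested.

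Interferon genes leaned the other way in the same vessels. Of 14 measured interferon gamma genes, 4 were lower in CD8 KO and 1 higher. The antiviral gene Rsad2 was at 16.2 CPM in CD8 KO, 66.4 in CD8 WT, 118 at 33 weeks and 55.5 in the P301S-negative library, a ratio of 0.243 (0.128 to 0.436), so CD8 KO was the lowest of the 4. Cxcl10, a chemokine for T cells, was at 61.4, 111, 168 and 320 CPM in the same order, a ratio of 0.551 (0.390 to 0.774). The complement gene C4b, at 36.6 and 80.6 CPM (2.20-fold lower), was lowest in the P301S-negative library, at 11.3 CPM. Pfkfb3, a glycolysis regulator, and Gfod1 had ratios of 0.379 and 0.444. Against male P301S-negative cells the log2 ratios of C4b and Gfod1 were above 0, at 1.19 and 0.23.

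In arterial endothelium (127 and 91 cells), 3.77% of 4800 measured genes were higher and 3.17% lower, and the genes past the limit included MHC class I processing and adhesion genes. Psmb9, a subunit of the immunoproteasome that cuts peptides for MHC class I, was at 80.1 CPM in CD8 KO, 165 in CD8 WT, 122 at 33 weeks and 332 in the P301S-negative library, a ratio of 0.486 (0.356 to 0.659), and 2 of 14 measured MHC class I genes were lower. Vcam1 was at 58.9, 131, 155 and 218 CPM, a ratio of 0.449 (0.313 to 0.638), and the growth factor Tgfb2 at 86.0, 157, 111 and 289 CPM, a ratio of 0.548 (0.404 to 0.741). In each of these 3 genes CD8 KO was the lowest library. The largest ratios upward belonged to the kinase gene Tec (2.58), the mRNA decapping gene Dcps (2.88), the mitochondrial import gene Tomm40 (2.73) and the kinetochore gene Zwint (2.73). Each of these had at most 71 UMIs in either library. Neutrophil markers summed to 50.7 CPM in CD8 KO and 201 in CD8 WT arterial cells, and erythroid markers to 4112 and 222 CPM, and their part was not tested.

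Pericytes (74 and 57 cells) were higher in 2 mural signalling genes and lower in some endothelial and glucocorticoid-response transcripts in CD8 KO. Of 1853 measured genes, 5.29% were higher and 6.26% lower. Rgs4, a brake on G-protein signalling typical of mural cells, was at 1879 CPM in CD8 KO, 1189 in CD8 WT, 1623 at 33 weeks and 1404 in the P301S-negative library, a ratio of 1.58 (1.36 to 1.83). Ednra, the endothelin receptor, was at 161, 70.9, 92.9 and 150 CPM, a ratio of 2.27 (1.27 to 4.26). These were the 2 members higher of 8 measured mural signalling genes, and none was lower. Of 10 glucocorticoid-response genes 4 were lower, and of 15 barrier genes 4 were lower, among them Cdh5, the endothelial cadherin (69.2 and 196 CPM, 2.84-fold lower). The summed level of 15 endothelial markers in these pericytes was 5987 CPM in CD8 KO and 7658 in CD8 WT, and its part in the barrier counts was not tested. Icam1, Thbd and Ier3 were 4.73-fold, 4.15-fold and 2.40-fold lower, each with 18.5% to 31.1% of its UMIs in 1 cell, and with doublet calls kept the log2 ratio of Icam1 turned to 0.065. Ccl2 had 2 UMIs in CD8 KO and 100 in CD8 WT, 99.0% of the latter in 1 cell. Without that cell so few UMIs were left that its ratio of 1.84 gives no direction.

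Smooth muscle cells showed the clearest pattern of the mural types, with some contractile genes higher and several immediate early genes lower in the library labelled CD8 KO. Most of the contractile list, with Des, Cnn1, Tpm2, Acta2, Tagln and Myh11, also served as markers that named the class. The mixed cluster of 69 CD8 KO and 56 CD8 WT cells is not part of these sums. The contractile values are therefore not independent of the typing. The class held 76 and 32 cells, and 9.91% of 2199 measured genes were higher and 7.69% lower. Of 14 contractile genes 4 were higher and none lower, with a median log2 ratio of 0.40 beside 0.04 over all measured genes. Des, the muscle intermediate filament, was at 522 CPM in CD8 KO (461 to 588), 202 in CD8 WT (143 to 277), 211 at 33 weeks and 278 in the P301S-negative library, a ratio of 2.58 (1.83 to 3.73). Cnn1, encoding calponin, was at 728, 330, 371 and 278 CPM, a ratio of 2.21 (1.68 to 2.94). Tpm2, a tropomyosin, was at 5112, 3235, 3654 and 3637 CPM, a ratio of 1.58 (1.45 to 1.73). Acta2 and Tagln, the most abundant members, had ratios of 1.31 and 1.41, while the myosin heavy chain Myh11 was at 3383 and 3282 CPM, a ratio of 1.03 (0.940 to 1.13). For Des, Cnn1, Tpm2 and Smtn the CD8 KO library was the highest of 4, and the other 3 lay nearer to each other than to it.

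Of 20 measured immediate early genes, the transcription factors and signals that stimuli induce within minutes, 9 were lower and 1 higher, with a median log2 ratio of -0.55. Ier2 was at 647 CPM in CD8 KO (579 to 720), 1420 in CD8 WT (1255 to 1601), 1470 at 33 weeks and 1403 in the P301S-negative library, 2.20-fold lower. Fosb was at 656, 1234, 1307 and 1325 CPM, 1.88-fold lower. Rrad, a small GTPase of muscle, was at 660, 2032, 1877 and 1891 CPM, 3.08-fold (2.65 to 3.57) lower. In each case CD8 KO stood apart and the 3 other libraries nearly coincided. Fos (0.743), Jun (0.760) and Egr1 (0.666) had smaller ratios on the same side, and male CD8 KO cells had 13 of the list's measured members lower than male P301S-negative cells and none higher. The orphan nuclear receptor Nr4a2 (590 and 1069 CPM) was 1.81-fold lower. The clock repressor Bhlhe40 was at 103, 261, 131 and 154 CPM, a ratio of 0.396 (0.263 to 0.596), with CD8 WT the high value.

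A pair of low-count genes led the list of higher genes in these cells. P2rx1, the ATP-gated channel of arterial muscle, had 58 UMIs in 22 CD8 KO cells and 1 UMI in CD8 WT, a ratio of 21.2 (3.66 to 853). Actg2, the enteric smooth muscle actin, had 53 UMIs in 10 cells and 1 UMI, a ratio of 19.4 (3.33 to 781). P2rx1 reached 63.8 CPM at 33 weeks and 13.6 in the P301S-negative library, against 113 in CD8 KO. Rasl10b (67 and 4 UMIs), Rgs17 (58 and 5) and Stk16 (47 and 4) had ratios of 6.13, 4.25 and 4.30. All 6 measured neutrophil granule genes were lower, with summed levels of 17.5 CPM in CD8 KO and 14571 CPM in CD8 WT, which held its granule transcripts mainly in 1 cell. Neuron markers summed to 162 CPM in CD8 KO smooth muscle and 10.6 CPM in CD8 WT, and whether these bear on the muscle genes was not tested.

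**Figure D3:**
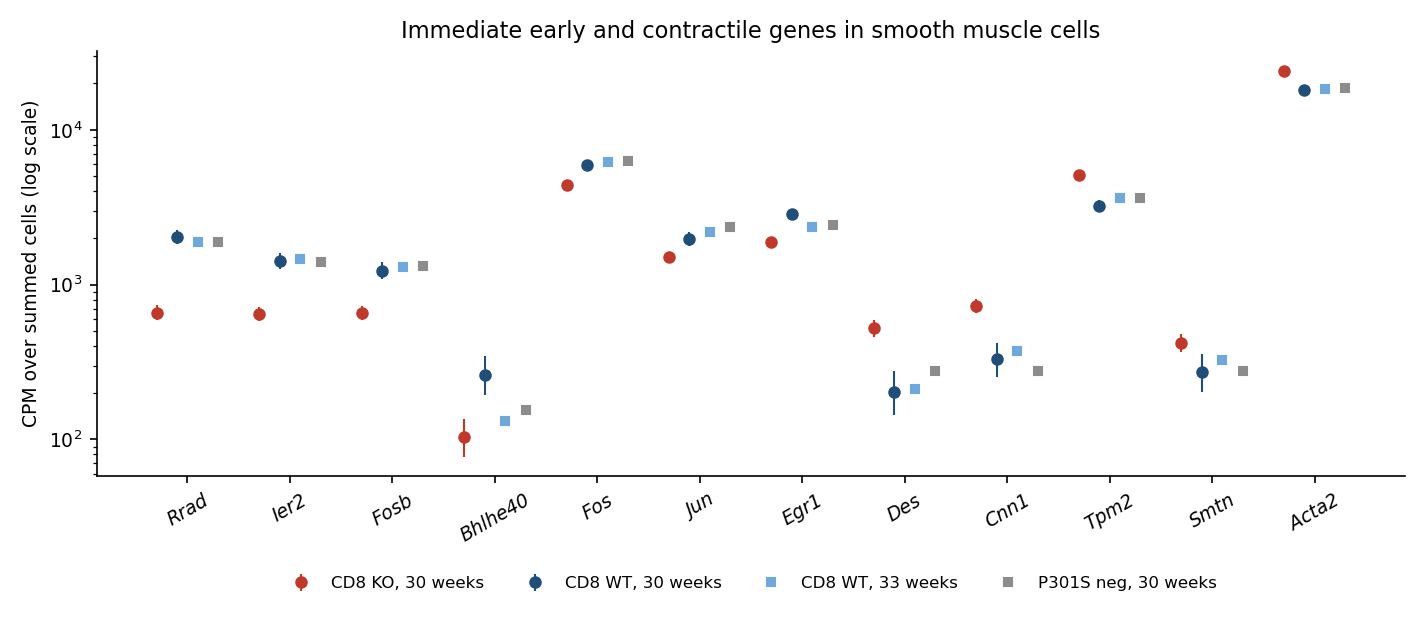
CPM over the summed smooth muscle cells (y axis, log scale) for immediate early genes, with Rrad and Bhlhe40, and contractile genes (x axis). Circles are the compared libraries with exact Poisson 95% intervals and squares the reference libraries. CD8 KO is below the other 3 for Rrad, Ier2 and Fosb, at 660, 647 and 656 CPM, and above them for Des, Cnn1 and Tpm2.

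Fibroblasts (35 and 34 cells) had lower matrix and immediate early transcripts in CD8 KO, on few cells. Of 1851 measured genes, 12.7% were higher and 9.56% lower. Of 17 matrix and basement membrane genes 10 were lower and 1 higher, with a median log2 ratio of -0.71, and of 18 immediate early genes 12 were lower and none higher, with a median of -0.70. The collagen chains Col15a1 (80.8 and 322 CPM), Col6a3 (137 and 335 CPM) and Col6a2 (594 and 1178 CPM) had ratios of 0.251, 0.408 and 0.504, and Col1a2 (1961 and 2657 CPM) of 0.738. Once top-cell UMIs were left out, the ratio of Col1a2 was 1.01. The reference libraries lay on both sides of CD8 KO for Col6a2, with 843 CPM at 33 weeks and 330 in the P301S-negative library. Fos was at 3099 CPM in CD8 KO, 5544 in CD8 WT, 4591 at 33 weeks and 4108 in the P301S-negative library, a ratio of 0.559 (0.514 to 0.608). Junb (0.590) and Ccn1 (0.335) lay on the same side. Endothelial markers summed to 2042 CPM in CD8 KO fibroblasts and 265 in CD8 WT fibroblasts, with 5 of 7 measured barrier genes higher, and their part in these ratios was not tested. Single cells carried the largest ratios: Cxcl9, a T cell chemokine, had 170 UMIs in CD8 KO and 0 in CD8 WT, 98.8% of them in 1 cell, Ccl5 had 151 and 0, all in 1 cell, and Cytl1 had 0 and 491, 99.8% of them in 1 cell. Ptgds, the prostaglandin D synthase of the meninges, had 2700 and 107 UMIs, and its ratio of 18.0 was 3.11 without the cell that held 82.7% of them.

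Ependymal cells (122 and 97 cells) did not differ by 1.5-fold in any of 15 measured cilia genes. Of 7298 measured genes, 3.11% were higher and 3.08% lower. Ide was the gene shared with endothelium, at 60.8 CPM in CD8 KO (49.2 to 74.3), 24.1 in CD8 WT (16.7 to 33.7), 19.1 at 33 weeks and 26.6 in the P301S-negative library, a ratio of 2.52 (1.69 to 3.85). It was also at 142 CPM in CD8 KO and 66.2 in CD8 WT oligodendrocyte precursors, a ratio of 2.14 (1.17 to 4.13), and there the references were 86.8 and 40.6 CPM. Ide was taken up in the last class after its values were seen. Rcan1, a calcineurin inhibitor, had a ratio of 2.04, and Rwdd4a of 2.01.

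Of 5 measured type I interferon genes 4, and of 7 MHC class I genes 3, were higher in CD8 KO ependymal cells. Oasl2, an antiviral gene, was at 58.2 CPM in CD8 KO, 14.9 in CD8 WT, 16.3 at 33 weeks and 5.13 in the P301S-negative library, a ratio of 3.91 (2.42 to 6.63). A single cell held 61.5% of its CD8 KO UMIs, and without that cell the ratio was 1.51. On the lower side were Gem, a small GTPase (61.4 and 141 CPM, 2.29-fold lower), the phosphodiesterase Pde10a (48.0 and 97.7 CPM, 2.04-fold lower, but with a log2 ratio of 0.051 between male CD8 KO and male 33-week cells), the phosphatase Dusp8 (26.9 and 55.2 CPM, 2.06-fold lower), Emp1 (57.6 and 108 CPM, 1.87-fold lower) and the X-linked Ddx3x (206 and 380 CPM, 1.84-fold lower). Stat3, a cytokine-activated transcription factor, was at 148 CPM in CD8 KO, 240 in CD8 WT, 180 at 33 weeks and 199 in the P301S-negative library, 1.62-fold (1.36 to 1.92) lower. Smooth muscle markers summed to 175 CPM in CD8 KO ependymal cells and 543 in CD8 WT ones, and 5 of 8 contractile genes were lower there. Erythroid markers summed to 5146 CPM in CD8 KO ependymal cells and 183 in CD8 WT ones, and the part of neither list was tested. Of 14 clock genes 3 were lower, among them Per1 (86.4 and 140 CPM, 1.62-fold) and Nr1d1 (37.1 and 66.6 CPM, 1.79-fold), and none was higher. CD8 KO was the lowest of the 4 libraries for Gem, Stat3, Per1 and Nr1d1.

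Oligodendrocyte precursors (56 and 38 cells) had higher glucocorticoid-response genes in CD8 KO, on low counts. Of 2284 measured genes, 5.56% were higher and 4.95% lower, or 127 higher and 113 lower by total UMIs and 171 higher and 69 lower after trimmed-mean scaling, which sets the scale by the bulk of genes. Of 7 measured glucocorticoid-response genes 4 were higher and none lower. Sgk1, a glucocorticoid-induced kinase, was at 242 CPM in CD8 KO, 110 in CD8 WT, 118 at 33 weeks and 190 in the P301S-negative library, a ratio of 2.20 (1.38 to 3.60). The metallothionein Mt2 was at 129, 48.5, 105 and 140 CPM, a ratio of 2.66 (1.34 to 5.74). Insig1, a brake on sterol synthesis, had 56 and 14 UMIs and a ratio of 2.85 (1.57 to 5.55), and 3 of 8 lipid genes were higher. The chromatin gene Bcl7c (54 and 11 UMIs, 3.50-fold), the splicing-associated gene Thrap3 (47 and 11 UMIs, 3.05-fold) and the tropomyosin gene Tpm4 (58 and 16 UMIs, 2.59-fold) led the higher genes. The lower genes were led by the X-linked Uba1 and Armcx3 (both 20 and 33 UMIs, 2.31-fold), the adenosine receptor gene Adora1 (24 and 38 UMIs, 2.22-fold) and the histone methyltransferase gene Kmt2a (29 and 44 UMIs, 2.13-fold). Apart from Bcl7c, Thrap3 and Insig1, the intervals of these ratios reached closer to 1 than 1.5-fold. Endothelial markers summed to 724 CPM in CD8 KO precursors and 13.2 CPM in CD8 WT precursors, a difference whose part was not tested.

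Schwann cells of the library labelled CD8 KO had higher interferon transcripts over the class and in the larger of its 2 clusters. Over the class, MHC class I and MHC class II transcripts were also higher and myelin transcripts lower. These last 3 differences did not hold in every cluster or subset of cells described below. The class held 93 and 40 cells of a type that belongs to nerve roots, and 13.6% of 1527 measured genes were higher and 10.6% lower. By total UMIs 208 genes were higher and 162 lower, and after trimmed-mean scaling 267 and 130. All 7 measured type I interferon genes were higher, with a median log2 ratio of 2.40 beside 0.02 over all measured genes. So were 8 of 10 interferon gamma genes, with a median of 1.30, 7 of 10 MHC class I genes, with 0.85, and all 4 MHC class II genes, with 1.54. Of 10 myelin genes 5 were lower and none higher, with a median of -0.60.

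The start-site regions of Ifit1 and Isg15 are shown because both genes are textbook targets of the interferon-activated complex ISGF3 and had the highest ratios of the type I list. Each sequence runs 5′ to 3′ on the gene's strand over 300 bases, from 250 before the start site to 50 after it, from RefSeq on GRCm38.p6. Capitals mark matches to GAAANNGAAA on either strand, a short form of the interferon-stimulated response element.
Ifit1, chr19:34640639-34640938, plus strand: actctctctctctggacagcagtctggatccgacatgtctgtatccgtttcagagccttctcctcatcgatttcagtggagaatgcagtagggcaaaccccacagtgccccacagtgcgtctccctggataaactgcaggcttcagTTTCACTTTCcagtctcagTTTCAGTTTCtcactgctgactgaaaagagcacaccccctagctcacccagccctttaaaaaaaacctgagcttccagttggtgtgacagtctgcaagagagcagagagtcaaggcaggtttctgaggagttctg
Isg15, chr4:156200769-156201068, minus strand: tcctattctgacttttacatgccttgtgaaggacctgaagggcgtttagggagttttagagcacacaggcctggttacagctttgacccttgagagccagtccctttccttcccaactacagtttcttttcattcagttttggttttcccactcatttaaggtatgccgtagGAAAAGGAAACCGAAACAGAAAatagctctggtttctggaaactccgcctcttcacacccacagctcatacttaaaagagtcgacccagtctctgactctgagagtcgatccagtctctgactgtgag
The Ifit1 region had 2 matches, on the reverse strand, and the Isg15 region 3 matches that overlap each other. Of 32851 promoters of this length in the table, 1131 (3.44%) held the letters on either strand. Of 38 genes of the 2 interferon lists 29 were matched to a promoter, and 20 of these held them; that of Ifi47, a GTPase induced by interferon gamma, did not. A match describes the letters and does not show binding.

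Ifit1, an antiviral RNA-binding protein, had 130 UMIs in 18 CD8 KO Schwann cells and 4 UMIs in 1 CD8 WT cell. Its level was 426 CPM in CD8 KO (356 to 506), 28.7 in CD8 WT (7.83 to 73.6), 66.6 at 33 weeks and 214 in the P301S-negative library, a ratio of 14.8 (5.66 to 55.3). Isg15, a ubiquitin-like modifier, had 207 UMIs in 30 cells and 12 in 8 cells, and stood at 679 CPM in CD8 KO, 86.2 in CD8 WT, 200 at 33 weeks and 180 in the P301S-negative library, a ratio of 7.88 (4.41 to 15.5). CD8 KO was the highest of the 4 for both, and the P301S-negative library stood well above CD8 WT for Ifit1. Ifi47 was at 328, 50.3, 26.6 and 101 CPM in the same order, a ratio of 6.52 (3.05 to 16.6). Bst2, which tethers budding virus, was at 433, 151, 226 and 304 CPM, a ratio of 2.87 (1.80 to 4.79).

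Among MHC class I genes, the nonclassical H2-T23 had 63 UMIs in 23 CD8 KO cells and 2 in 2 CD8 WT cells, a ratio of 14.4 (3.82 to 121). The classical H2-D1 was at 2444 CPM in CD8 KO, 1214 in CD8 WT, 1118 at 33 weeks and 1800 in the P301S-negative library, a ratio of 2.01 (1.70 to 2.39). H2-K1 was at 1985, 1085, 639 and 2013 CPM, a ratio of 1.83 (1.53 to 2.20), so the P301S-negative library matched CD8 KO for this gene. Mbp and Pmp22, which encode myelin proteins, had ratios of 0.704 and 0.716 over the class.

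The class was made of 2 clusters in different proportions. Cluster 4 held 81 CD8 KO and 22 CD8 WT cells and cluster 33 held 12 and 18. Within cluster 4 the ratio was 7.24 (2.75 to 27.0) for Ifit1, 9.36 (3.94 to 29.1) for Isg15, 4.70 (1.95 to 14.8) for Ifi47 and 12.4 (2.12 to 498) for H2-T23, but 1.24 (0.760 to 2.11) for Bst2 and 1.43 (1.17 to 1.76) for H2-D1. There 4 of 7 type I genes, 6 of 8 interferon gamma genes, 1 of 7 MHC class I genes and all 4 MHC class II genes were higher, and 1 of 7 myelin genes was lower. In cluster 33, 2 of 8 myelin genes were higher and none lower, so the lower myelin level of the class was not seen in that cluster. Mbp had ratios of 1.19 (0.946 to 1.52) in cluster 4 and 1.79 (1.57 to 2.04) in cluster 33, and Pmp22 of 0.865 (0.734 to 1.02) and 1.39 (1.20 to 1.60). Myelin genes summed to 72379 and 55014 CPM in cluster 33 against 15226 and 18685 CPM in cluster 4. MHC class II genes summed to 381 CPM in CD8 KO and 680 in CD8 WT in cluster 33, against 1435 and 259 CPM in cluster 4. Of 12 Schwann markers, 7 were detected in at least 10% of the cells of cluster 4 and 10 in cluster 33. Apoe was at 14239 and 10271 CPM in cluster 4 against 356 and 694 CPM in cluster 33. Fabp7 was at 1081 and 304 CPM in cluster 4 and at 0 in both libraries in cluster 33. Cluster 4, with most of the CD8 KO cells, is thus low in myelin genes, and its type within root glia was not tested. Endothelial markers summed to 1496 CPM in CD8 KO and 3491 in CD8 WT Schwann cells, and macrophage markers to 502 and 309 CPM. Neuron markers summed to 607 CPM in CD8 KO and 21.5 in CD8 WT, and erythroid markers to 115 and 6048 CPM, and their part was not tested. Without the cells that held endothelial transcripts (87 and 34 cells left), Ifit1 had a ratio of 10.4 (3.98 to 38.9), Isg15 of 10.9 and H2-D1 of 1.93, 6 of 7 type I and 6 of 8 MHC class I genes were higher, and of 3 measured MHC class II genes 1 was higher and 1 lower.

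**Figure D4:**
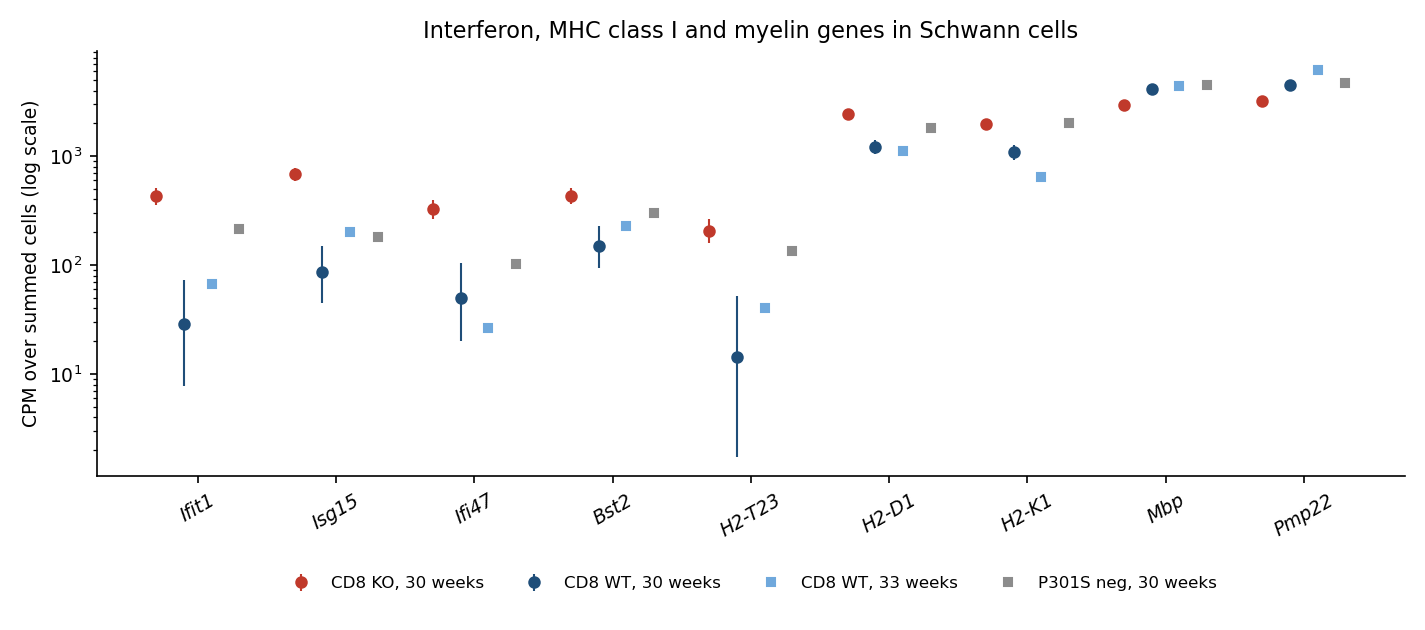
CPM over the summed Schwann cells (y axis, log scale) for interferon, MHC class I and myelin genes (x axis). Circles are the compared libraries with exact Poisson 95% intervals and squares the reference libraries. CD8 KO is above CD8 WT for the 7 genes from Ifit1 to H2-K1 and below it for Mbp and Pmp22 over the class as a whole.

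T cells were a mixture, and their comparison turned on a developing group in the CD8 KO library. Of 1289 measured genes, 21.4% were higher and 10.5% lower over all 67 and 51 T cells. By total UMIs 276 genes were higher and 135 lower, and after trimmed-mean scaling, which moved the median of all genes by 0.15 on the log2 scale, 209 and 219. Dntt and Rag1, which build antigen receptor genes in the thymus and marrow, had 121 and 50 UMIs in CD8 KO and 0 in CD8 WT, at least 30.6-fold and at least 12.6-fold higher. Ly6d and Cd24a, also of immature lymphocytes, had 228 and 124 UMIs against 0, and Sox4 94 against 1, a ratio of 71.3 (12.5 to 2845). They marked a sub-cluster of 17 CD8 KO cells and 1 CD8 WT cell. A further sub-cluster of 11 cells, all from CD8 KO, led with the neuronal genes Nefl, Tubb3 and Prph, and neuron markers summed to 584 CPM in CD8 KO T cells and 88.5 in CD8 WT T cells, a difference whose part was not tested.

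Without the developing group, 50 cells remained in each library, and 107 genes were higher and 68 lower. Cd8b1 then had 5 UMIs in CD8 KO and 86 in CD8 WT, a ratio of 0.0702 (0.0222 to 0.170), beside 5 and 62 for Cd8a. Over all T cells Cd8b1 had had 50 and 92 UMIs, so most of the CD8 KO library's UMIs lay in the developing group. Gzma, a granule protease, had 68 UMIs in 7 CD8 KO cells and 5 in 2 CD8 WT cells, a ratio of 16.4 (6.70 to 52.2). Nkg7, a cytotoxic granule protein, was at 1469 and 1504 CPM, a ratio of 0.977 (0.814 to 1.17), although it was 0.583 over all T cells. Of 9 measured cytotoxic genes 1 was higher and none lower, where 4 had been lower over all T cells. Pdcd1, the inhibitory receptor PD-1, was at 86.8 CPM in CD8 KO and 205 in CD8 WT, a ratio of 0.424 (0.207 to 0.817), with 13 and 37 UMIs. The signalling adaptor Traf1 (80.1 and 288 CPM) and the chemokine Xcl1 (200 and 420 CPM) had ratios of 0.279 (0.135 to 0.529) and 0.477 (0.301 to 0.736). CD8 WT T cells were thus higher in Cd8b1, Pdcd1, Traf1 and Xcl1 whichever way the group was drawn.

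Outside the developing group all 5 measured type I interferon genes were higher in CD8 KO T cells, and 3 of 3 when cells with endothelial transcripts were also left out (46 and 44 cells). Of the 70 Ifitm3 UMIs in CD8 KO T cells 52 lay in 1 cell. Isg15 had 111 and 35 UMIs over all T cells, a ratio of 2.41 (1.63 to 3.63). A small sub-cluster of 3 CD8 KO cells and 1 CD8 WT cell led with such genes. Of 17 immediate early genes 13 were higher and 1 lower outside the developing group, but 3 of 11 were higher and 1 lower once cells with endothelial transcripts were left out too, with Jun turned to a log2 ratio of -0.16. A sub-cluster of 8 CD8 KO and 13 CD8 WT cells led with the endothelial genes Flt1, Pltp and Cldn5, and all 68 Flt1 UMIs of CD8 KO T cells lay in 1 cell. A single cell also held 148 of the 164 Jun UMIs. Over all T cells the list's median log2 ratio was 1.01, and -0.13 without the top cell of each library. Proliferation genes, 5 of 7 higher over all T cells, had 1 measured member outside the developing group, which was not apart.

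B cells (69 and 141 cells) of the CD8 KO library held fewer cells with plasma cell and cell cycle transcripts. Of 1985 measured genes, 22% were higher and 5.49% lower. The split followed scaling: 436 higher and 109 lower by total UMIs became 110 and 303 after trimmed-mean scaling, which moved the median of all genes by 0.41 on the log2 scale. Jchain, the joining chain of secreted antibody (chr5:88519809-88527891, minus strand), had 251 UMIs in 1 CD8 KO cell and 16007 in 14 CD8 WT cells. It stood at 1186 CPM in CD8 KO, 24408 in CD8 WT, 13932 at 33 weeks and 5434 in the P301S-negative library, 20.6-fold (18.2 to 23.4) lower. Plasma cell markers summed to 2268 CPM in CD8 KO and 26216 in CD8 WT. Ighm, the heavy chain of IgM, was at 4494 and 12122 CPM, 2.70-fold lower. A single CD8 WT cell held 41.6% of that library's UMIs of Ighm, and without that cell Ighm was 1.57-fold lower. With doublet calls kept, the direction of Ighm turned, to a log2 ratio of 0.66. Glipr1 had 1 and 73 UMIs, a ratio of 0.0425 (0.00106 to 0.244). Of 11 measured proliferation genes 10 were lower, among them Mki67 (0.331) and Top2a (0.434). Pclaf, a replication clamp factor, had UMIs in 4 and 16 cells and a ratio of 0.249, and Dnmt1, which maintains methylation at replication, had a ratio of 0.230. Ms4a1, encoding CD20, and the IgM receptor Fcmr had ratios of 1.81 and 1.99 by total UMIs. Ifit1 had 50 UMIs in 1 CD8 KO cell and 2 in 1 CD8 WT cell, a ratio of 77.5 (20.4 to 657). Erythroid markers summed to 161 CPM in CD8 KO B cells and 17849 in CD8 WT B cells, and their part was not tested.

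Monocytes (56 and 103 cells) of the CD8 KO library were higher in MHC class II genes. Of 2735 measured genes, 4.28% were higher and 6.51% lower, and 5 of 6 measured MHC class II genes were higher with none lower, at a median log2 ratio of 0.97 beside -0.02 over all measured genes. H2-Eb1 was at 2105 CPM in CD8 KO (1947 to 2273), 957 in CD8 WT (883 to 1036), 721 at 33 weeks and 980 in the P301S-negative library, a ratio of 2.20 (1.97 to 2.46), with UMIs in 16 and 20 cells. H2-Ab1 (2.17), H2-Aa (1.96) and the invariant chain Cd74 (1.96) stood beside it, and CD8 KO was the highest library for each. H2-Ab1 and Clec10a were also markers of dendritic cells in the typing, and the part of dendritic cells in this class was not tested. Clec10a, a lectin of dendritic-like monocytes (145, 57.9, 45.5 and 65.8 CPM), the oxysterol receptor Gpr183 (116, 45.4, 38.4 and 30.4 CPM) and the prostaglandin-degrading enzyme Hpgd (164, 53.2, 111 and 140 CPM) had ratios of 2.50, 2.55 and 3.09. The list of lower genes held Cd7 (7 and 80 UMIs, 5.55-fold lower), Spn, encoding CD43 (4 and 46 UMIs, 5.59-fold), and the cell cycle genes Top2a (5 and 45 UMIs) and Pclaf (8 and 72 UMIs), both 4.37-fold. Of 10 neutrophil granule genes 7 were lower, and neutrophil markers summed to 418 CPM in CD8 KO monocytes and 4156 in CD8 WT monocytes; their part in the other ratios was not tested.

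Neutrophils (204 and 610 cells) of the CD8 KO library were below those of CD8 WT in promyelocyte and cell cycle transcripts, a direction that turned for Elane and Cdk1 against male cells of the other libraries. They fell into 3 clusters, with 17 and 88 cells led by the granule genes Camp and Ngp, 90 and 309 led by Ngp and Camp, and 97 and 213 led by Retnlg, a gene of mature neutrophils. Of 4754 measured genes, 10.8% were higher and 6.58% lower; 514 higher and 313 lower by total UMIs became 258 and 563 after trimmed-mean scaling, which moved the median by 0.17. Elane, the elastase made by promyelocytes, had UMIs in 2 CD8 KO cells and 50 CD8 WT cells and stood at 1386 and 2708 CPM, 1.95-fold lower. The cell cycle genes Cdk1 (51.1 and 109 CPM) and Cdkn3 (23.2 and 67.0 CPM) were 2.13-fold and 2.89-fold lower, and 5 of 16 proliferation genes were lower with none higher. Against male 33-week and male P301S-negative neutrophils, the log2 ratios of male CD8 KO cells were 8.82 and 0.39 for Elane and 0.85 and 0.39 for Cdk1. The chemokine Cxcl2 was at 364 CPM in CD8 KO, 726 in CD8 WT, 660 at 33 weeks and 340 in the P301S-negative library. Csf3r, the G-CSF receptor of mature cells, had a ratio of 1.70 and stood at 276 CPM in CD8 KO, 162 in CD8 WT, 257 at 33 weeks and 243 in the P301S-negative library. The CD8 WT library was thus the low value, and against male cells of both reference libraries the ratios of Csf3r and Arrdc3 (2.87 against CD8 WT) were below 1.

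Erythroid cells (83 and 201 cells) differed in cell cycle genes and not in maturation genes. Of 3450 measured genes, 1.80% were higher and 16.8% lower, 62 and 579 by total UMIs and 126 and 352 after trimmed-mean scaling, which moved the median by -0.14. None of 16 maturation genes was apart, and 6 of 16 proliferation genes were lower with none higher. The replication genes Lig1 (65.9 and 160 CPM, 2.43-fold lower), Mcm2 (71.0 and 135 CPM, 1.90-fold lower) and Mcm5 (73.6 and 138 CPM, 1.88-fold lower) were close to the P301S-negative library, at 89.7, 82.2 and 76.0 CPM. The histone gene Hist1h2bc had a ratio of 1.82.

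**Figure D5:**
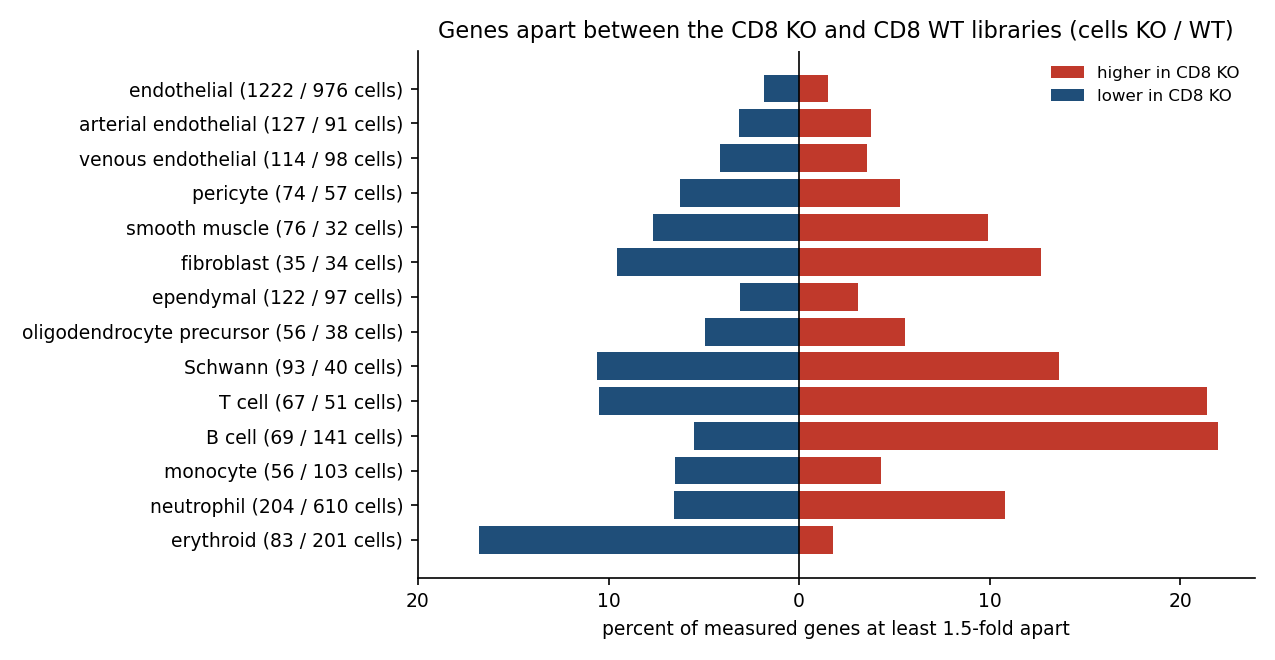
Percent of measured genes (x axis, lower to the left and higher to the right of 0) that were at least 1.5-fold apart between the CD8 KO and CD8 WT libraries in each class (y axis, with cells in each library). The share is smallest in endothelium, at 1.53% higher and 1.83% lower, and larger in classes of fewer cells and in T, B and erythroid cells.

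Across 12 classes (endothelium taken as a whole and its capillary, arterial and venous parts not counted again), 2727 genes were measured in at least 5. None was higher in CD8 KO in every class in which it was measured, and Xist, the transcript of the inactive X, was the single gene lower in every class. Ddx3x was lower in 5 of 12 classes and higher in none.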

How the data were processed

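The authors deposited unnormalised counts of UMIs for 32285 genes in each barcode, made with Cell Ranger 6.0.1 per the file headers and on mm10 per the submitters' processing notes, from 3′ libraries of pooled cords of 2 mice. No count was altered here. Cells passed at least 500 UMIs, at least 200 genes, at most 15% mitochondrial UMIs and C1qa, C1qb and C1qc under 0.5% of UMIs, and 69 and 59 doublet calls of scrublet (1.34% and 1.24% of the cells) were removed in the CD8 KO and CD8 WT libraries. The cells of all 4 libraries were clustered together without batch integration (scanpy 1.11.5; 2000 variable genes, 30 principal components, 15 neighbours, Leiden resolution 1), and clusters were named from marker lists.

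UMIs were summed per class and library for classes of at least 30 cells, with CPM, ratios and exact intervals from scipy 1.17.1, and genes needed at least 50 UMIs. A gene at 0 in 1 library was compared with a floor of 3 UMIs in that library. With 1 library per group no test was made. The text names genes by rule: in each class the 5 highest and 5 lowest ratios with at least 50 CPM in the higher library, and up to 4 members per direction of each gene list past 1.5-fold, besides Cd8a, Cd8b1 and genes apart on the same side in at least 5 classes. Ratios for this ranking had 5 CPM added. Mitochondrial, ribosomal protein, haemoglobin, antigen receptor segment, predicted and sex-linked genes were left out of the ranking, as were those with a CPM more than 10 times as high in a different class of at least 50 cells. Ide, Ercc1, Creb5, Scoc, Ddx3x, Eif2s3x, Kdm6a, Kdm5c, the transcripts found in 1 library, list members within 1.5-fold and the leading genes of clusters were added after their values were seen, as were the limits that left mixed clusters unnamed. The members and lists were chosen with earlier results of these data known. The scripts were tested on simulated counts. Male cells carried a UMI of Ddx3y, Eif2s3y, Uty or Kdm5d and none of Xist. Gene loci are those of mm10 (GENCODE M21), and promoter sequences those of RefSeq on GRCm38.p6.

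Alternatives tried were doublets kept, C1q limits of 0.25%, mitochondrial limits of 10%, clustering at resolution 2.0, other scalings and UMI limits, equal weight per cell and male reference cells. Leaving out the top cell, the developing T cells, a Schwann cluster or Schwann or T cells with endothelial UMIs, and counting mixed mural clusters with their class, was added after the data were seen.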

Additional observations from a re-analysis of the deposited data

How the results depend on the processing

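No paired analysis was possible because each group was 1 library, and for the same reason no replicate could be left out. Scaling by trimmed means or by the median of ratios and a C1q limit of 0.25% kept all 14 counts of genes past 1.5-fold within 1.5 times, and trimmed means reversed none of 165 gene ratios and none of 36 list medians. Keeping doublets reversed the log2 ratios of Icam1 in pericytes (0.065) and Ighm in B cells (0.66) and raised the counts of genes past 1.5-fold to 415 in pericytes and 710 in smooth muscle; resolution 2.0 gave 115 in pericytes. Over cord types alone the ratio of shares was 0.984 for endothelial cells and 0.988 for ependymal cells.

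The counts of genes past 1.5-fold moved with the UMI limit. In the order endothelial, arterial, venous, pericyte, smooth muscle, fibroblast, ependymal, oligodendrocyte precursor, Schwann, T, B, monocyte, neutrophil and erythroid they were 338, 333, 382, 214, 387, 412, 452, 240, 370, 411, 545, 295, 827 and 641 as reported. With no limit and 5 CPM added they were 81, 1897, 1802, 5676, 4853, 6690, 1168, 5897, 6913, 7032, 5567, 3884, 1784 and 1658. With at least 200 UMIs, where fewer genes are measured, they were 59, 16, 28, 17, 47, 73, 32, 6, 41, 58, 76, 28, 126 and 66, and the type I interferon median of T cells was -0.010. Weighting each cell alike gave 663 endothelial, 703 arterial, 979 venous, 1013 ependymal, 463 precursor, 1380 neutrophil and 1069 erythroid genes. Without the developing T cells there were 175 genes, and the proliferation median was -0.11. Without those and T cells with endothelial UMIs there were 105, and the log2 ratios of Nkg7 (0.14) and Jun (-0.16) turned.

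Against male P301S-negative cells the counts were 733 endothelial, 623 arterial, 653 venous and 299 neutrophil genes, and 313 neutrophil genes against male 33-week cells. Log2 ratios that turned against male 33-week cells were Fkbp5 (-0.33), Lmcd1 (0.71), Eif2s3x (0.10) and Lrrc32 (0.92) in endothelium, Tcp11l2 (0.079) in arterial cells, Pde10a (0.051) in ependymal cells, and Arrdc3 (-0.20), Csf3r (-0.65), Elane (8.82), Cdk1 (0.85) and the activation list (-0.24) in neutrophils. Those that turned against male P301S-negative cells were Hrct1 (-0.30), Ddx3x (0.11), Lmcd1 (0.68) and Eif2s3x (0.19) in endothelium, Gfod1 (0.23) and C4b (1.19) in venous cells, and Arrdc3 (-0.44), Csf3r (-0.20), Elane (0.39), Cdk1 (0.39), Cxcl2 (0.56) and the activation list (-0.20) in neutrophils. Without the top cell of each library, few or no UMIs of Cxcl9, Ccl5 and Cytl1 were left in fibroblasts. Their log2 ratios of -1.07, -0.48 and 1.10 were set by the UMI floor for genes at 0 and give no direction. In T cells the same step turned Jun (-0.40) and the immediate early list (-0.13). Apart from those resting on fewer genes, cells or 1 cell by construction, the cause was not tested. Male references under 30 cells and shares with no value under an alternative were not run. Depth limits the counts, since in each of the 14 classes most genes past 1.5-fold had under 200 UMIs.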

Other observations

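Within the library of P301S-negative mice, endothelial cells with Y-linked transcripts stood above endothelial cells with Xist in interferon gamma and MHC class I genes. Of 18 measured interferon gamma genes 17 were higher in the male cells and none lower, with a median log2 ratio of 1.75, and of 16 MHC class I genes 14 were higher and none lower, with a median of 1.18. Of 17 type I interferon genes 10 were higher and 1 lower, with a median of 0.73. Igtp, a GTPase induced by interferon gamma, was at 520 CPM in the male cells, 8.66-fold the level of the female cells of that library, and at 51.9 in the CD8 KO and 57.4 in the CD8 WT library. Gbp2, a guanylate-binding protein, was at 370 and 117 CPM in the male and female cells, and H2-K1 at 4409 and 1860 CPM. In the tau libraries H2-K1 was at 1454 CPM in CD8 KO, 1619 in CD8 WT and 1296 at 33 weeks. The library pooled 2 mice, so mouse and sex cannot be told apart in it. These genes were chosen after their values were seen.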
